A study of Homo sapiens with 53 samples.

Results

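The replication-dependent histone genes encode the linker histone H1 and the core histones H2A, H2B, H3 and H4 that package newly made DNA. They were examined here as 4 windows of hg19 chosen by position: 3 windows of the HIST1 cluster, called main (chr6:26015000-26290000), middle (chr6:27095000-27120000) and distal (chr6:27770000-27865000), and the HIST2 cluster (chr1:149780000-149862000). A member is a merged peak that overlaps a window by at least 1 bp. There are 433 members among 706206 peaks of the 10 lists of the series. They come from chromatin immunoprecipitation followed by sequencing (ChIP-seq) in HEK293T, a human embryonic kidney line. The cells were kept for 72 h with the solvent DMSO or with BPK-25 (30 µM), a compound.

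CTCF and MBD3 were immunoprecipitated from the parental cells, each in 3 labelled replicates per treatment. TET1-Flag, TET2-Flag and TET3-Flag were immunoprecipitated with an antibody against Flag from 3 derived lines, again in 3 labelled replicates per treatment, except that 2 TET2 samples under DMSO are used here, replicates 1 and 3. The TET2 list under DMSO carries the numbers 1 to 3 in its name, so which samples it was called on is uncertain. The labels call these lines edited and do not say whether each is 1 clone, nor what drives the tagged genes; the TET lists therefore come from other cells than the CTCF and MBD3 lists. Each target and treatment has 1 deposited list, taken as called on pooled replicates, so no value below has a spread between replicates and no difference between treatments could be tested. Intervals are exact Clopper-Pearson 95% intervals and cover counting error only.

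Histone genes of this kind are transcribed in a burst when DNA is replicated, and their transcripts end in a stem-loop in place of a poly(A) tail. The genes sit side by side in clusters that gather in a nuclear compartment, the histone locus body, together with the factors that transcribe and process them. CTCF is the zinc-finger protein of insulators and chromatin loop anchors. MBD3 is a subunit of NuRD, a complex that joins nucleosome remodelling with histone deacetylation, and the TET proteins oxidise 5-methylcytosine.

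RefSeq lists 64 replication-dependent histone genes in the 4 gene groups, 32 in the main, 5 in the middle, 16 in the distal and 11 in the HIST2 group. By family they are 6 H1, 15 H2A, 16 H2B, 13 H3 and 14 H4 genes. The RefSeq tables are on GRCh38.p14 and the peaks on hg19, so gene names and gene order were used and no peak was assigned to a gene. Of the 64 genes, 59 have a promoter sequence in the table. In the 250 bases before the start, searched on both strands, a TATA box (TATAAA or TATATA) was found in 74.6% of the 59 and in 13.3% of 27305 promoters of all genes. A CCAAT box (CCAAT) was found in 84.7% and 33.0%, and the core of the octamer (ATTTGCA) in 40.7% and 3.70%. The families differed: the octamer core was in 81.2% of H2B and 71.4% of H2A promoters, in 9.09% of H3 promoters and in no H1 or H4 promoter, while CCAAT was in every H1, H2A, H2B and H3 promoter of the table and in 25.0% of H4 promoters. None of the 3 motifs contains another, and a match describes the letters only.

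The last 150 bases before the start of 3 HIST2 genes are shown 5′ to 3′ from RefSeq GRCh38.p14, because copies of these genes bear on how the HIST2 peaks can be read. H4C14 (plus strand, chr1:149832507-149832656) and H4C15 (minus strand, chr1:149861160-149861309) encode histone H4, and H2BC21 (minus strand, chr1:149886683-149886832) encodes a histone H2B. Capitals mark the TATA box, the CCAAT boxes and the octamer core.
H4C14: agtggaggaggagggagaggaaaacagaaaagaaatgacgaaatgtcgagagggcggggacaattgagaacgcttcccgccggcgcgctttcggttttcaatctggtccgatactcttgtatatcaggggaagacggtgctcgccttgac
H4C15: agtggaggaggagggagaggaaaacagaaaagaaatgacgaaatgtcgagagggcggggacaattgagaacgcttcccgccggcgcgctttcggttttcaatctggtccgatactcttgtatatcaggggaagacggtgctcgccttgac
H2BC21: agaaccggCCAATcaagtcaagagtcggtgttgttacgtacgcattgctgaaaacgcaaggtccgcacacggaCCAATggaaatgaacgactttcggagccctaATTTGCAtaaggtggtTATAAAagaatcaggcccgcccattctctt
The H4C14 and H4C15 sequences are identical at all 250 bases compared, on opposite strands, and hold none of the 3 motifs in the stretch shown. H2BC21 holds each of the 3 motifs there. Reads from stretches that are identical in both copies cannot be placed in 1 of them by sequence, so the peaks of such stretches are uncertain as to the copy.

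All 5 targets had peaks in the windows under DMSO, and the proteins differed in which windows they filled. CTCF had 59 DMSO peaks, 26 in the main, 3 in the middle, 14 in the distal and 16 in the HIST2 window. MBD3 had 73, with 34, 7, 18 and 14 in the same order. TET1 had 34 (18, 1, 6 and 9) and TET3 had 43 (20, 2, 7 and 14). TET2 had 5, of which 2 lay in the distal and 3 in the HIST2 window and none in the main or middle window.

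Under BPK-25 the window counts of the targets went in different directions. CTCF had 86 peaks (38, 7, 22 and 19) and MBD3 82 (35, 7, 21 and 19). TET3 had 47 (24, 4, 8 and 11). TET1 had 2 and TET2 had 2, in each case 1 in the main and 1 in the HIST2 window. Over the whole genome the CTCF list went from 99587 to 245419 peaks, MBD3 from 82358 to 243213, TET1 from 5951 to 447, TET2 from 1233 to 509 and TET3 from 14129 to 13360. The windows thus held a smaller share of the CTCF and MBD3 lists under BPK-25 than under DMSO, even though their own counts were higher. For CTCF this turned with the threshold: at a -log10 q of at least 10 the counts were 36 and 36, and the ratio of the window density to that of the rest of the genome went from 2.88 under DMSO to 4.85 under BPK-25, where at the deposited threshold it went from 3.82 to 2.24.

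**Figure D1:**
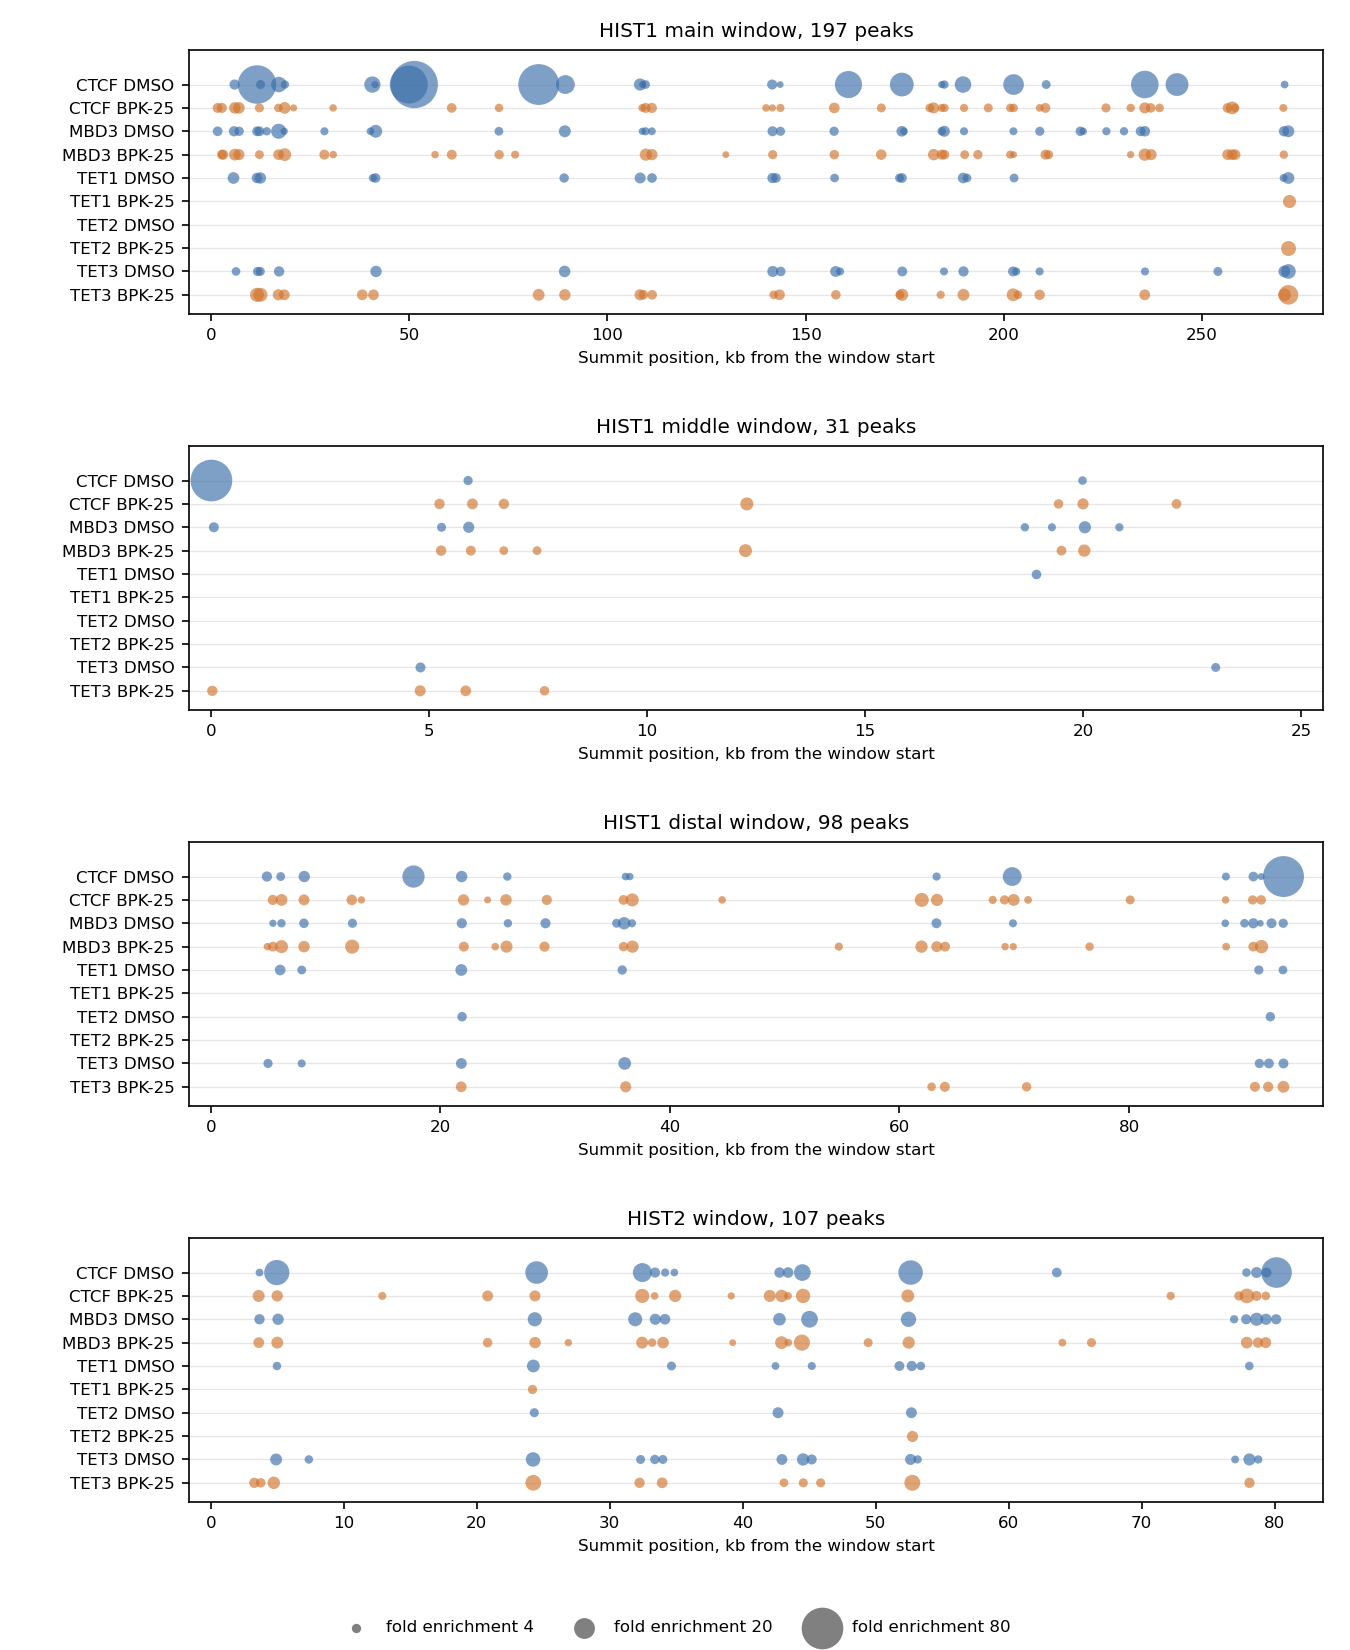
Summits of the 433 peaks by window and list. The horizontal axis is the distance from the window start in kb, each row is 1 list (blue DMSO, orange BPK-25), and the area of a point is proportional to fold enrichment. The large CTCF points under DMSO, up to a fold enrichment of 103, have no counterpart of that size in the CTCF row under BPK-25, and the TET1 row has 34 points under DMSO and 2 under BPK-25.

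Peaks of every list were denser in the windows than over the rest of chromosomes 1 to 22 and X. For CTCF the windows held 124 peaks per Mb under DMSO against 32.4 elsewhere, and 180 against 80.4 under BPK-25. The ratio for MBD3 was 5.68 under DMSO and 2.16 under BPK-25. For TET1 it was 36.9 and then 30.9, for TET2 26.4 and then 29.3, and for TET3 19.5 and then 22.7. Beside these ratios stands the local background at the peaks, which for CTCF under DMSO had a median of 2.09 times the genome background in the windows and 1.43 times in the whole list; its part in the densities was not tested. The ratio is largest for TET1, but for TET1 under BPK-25 and for TET2 it rests on 2 to 5 peaks in the windows.

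Set against tiles of the genome as long as the main window, 275 kb, the TET1 count under DMSO and the TET3 counts of that window were rarely matched. It held 18 TET1 summits under DMSO, and 3 of 11023 tiles held as many. All 3 tiles lie on chromosome 6 and touch the stretches next to the HIST1 windows, and 2 of them touch a histone window itself. It held 20 TET3 summits under DMSO and 24 under BPK-25, numbers that 10 and 7 tiles reached, of which 2 in each case touch a histone window. The window is thus in part compared with itself. TET1 and TET2 under BPK-25 had 1 summit each there, reached by 2.05% and 1.79% of tiles, and TET2 under DMSO had none. For CTCF, 26 summits under DMSO were reached by 4.02% of tiles and 38 under BPK-25 by 17.2%, and for MBD3 the shares were 3.19% and 18.8%.

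The stretches next to the windows were counted too. They are the 2 stretches of chromosome 6 between the HIST1 windows and 1 stretch as long as the main window on each outer side, called HIST1 neighbours below. RefSeq lists 47 transfer RNA genes after H4C8 up to H2BC11 and 51 after H2AC12 up to H2BC13, that is 98 in the gene order between the 3 HIST1 groups, and none among the histone genes of the 4 groups. CTCF and MBD3 were denser in the HIST1 windows than in these neighbours, with ratios of 2.16 and 2.52 for CTCF under DMSO and BPK-25 and of 2.07 and 2.50 for MBD3. TET3 differed less, with ratios of 1.39 and 1.46. TET1 had 63.3 peaks per Mb in the HIST1 windows and 50.9 in the neighbours under DMSO, and 2.53 and 27.9 under BPK-25. TET2 was sparser in the windows under both treatments, with 5.06 against 29.9 peaks per Mb under DMSO and 2.53 against 33.9 under BPK-25. The density plot shows that windows and neighbours part from each other for TET1 under BPK-25 and for TET2.

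**Figure D2:**
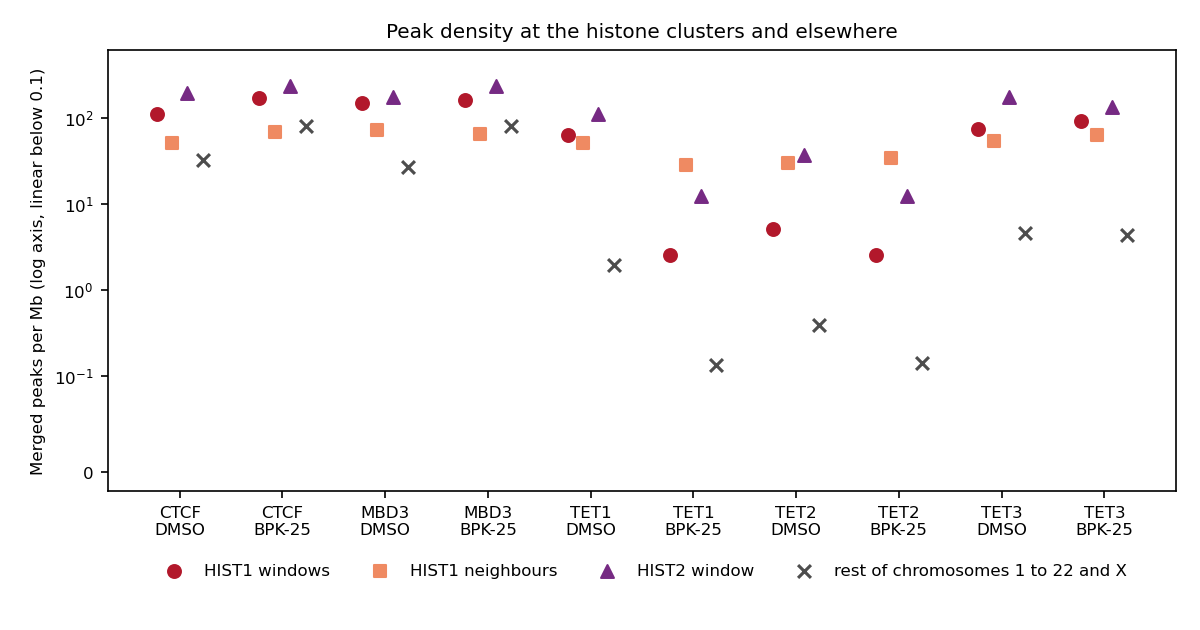
Merged peaks per Mb (vertical axis, log scale, linear below 0.1) for each list (horizontal axis), in the HIST1 windows, the HIST1 neighbours, the HIST2 window and the rest of chromosomes 1 to 22 and X. Under DMSO the TET1 densities of the HIST1 windows and neighbours are 63.3 and 50.9, and under BPK-25 they are 2.53 and 27.9.

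CTCF peaks of the windows under DMSO fell into a weak and a strong class. Fold enrichment is the pileup of fragments at the summit over the local background, as the authors' peak caller gave it. Of the 59 peaks, 36 had a fold enrichment under 10 and 23 one of at least 10, and no peak lay between 6.87 and 11.1. The members nearest to the limit of 10 from below had 5.94, 6.03 and 6.87 and those nearest from above 11.1, 12.2 and 12.6. The median over the windows was 4.87, against 11.3 for the whole list. Weak peaks thus made up a larger share of the windows than of the list.

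The highest CTCF value in the windows stood at chr6:26066106-26066515, where the fold enrichment was 103. It was followed by chr6:27094569-27095227 with 80.2, at the edge of the middle window, by chr6:27863191-27863642 with 77.2, near the end of the distal window, and by chr6:26097519-26097933 with 76.9. Next came chr6:26026471-26026935 with 68.4 and chr6:26064532-26065212 with 66.4. The sites at 103, 80.2, 76.9 and 66.4 were chosen after seeing their values. None of these 6 peaks overlapped a CTCF peak under BPK-25, while 37.4% of the list peaks of at least 20 did. The site near the end of the distal window and the site at 68.4 in the main window also had TET1 and TET3 peaks under DMSO.

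Under BPK-25, 1 window peak had a CTCF fold enrichment of at least 10, the highest at 10.0, and the median was 4.33, against 3.71 over the whole list. The loss of strong values was not particular to the windows: peaks of at least 10 numbered 53019 of 99587 in the whole list under DMSO and 2311 of 245419 under BPK-25, and the highest value went from 651 to 35.8. Of the 59 DMSO peaks, 42 overlapped a BPK-25 CTCF peak and are called retained (71.2%, interval 57.9 to 82.2), against 39.2% of the whole list. Retention was 15 of 26 in the main window, 2 of 3 in the middle, 11 of 14 in the distal and 14 of 16 in the HIST2 window. In the HIST1 neighbours it was 32 of 101 (31.7%, interval 22.8 to 41.7), against 28 of 43 in the HIST1 windows alone (65.1%, interval 49.1 to 79.0). The HIST2 neighbours kept 4 of 7. The share of the 4 windows depended on the threshold: with a -log10 q of at least 10 in both lists it was 33.3% of 36 peaks, against 16.8% of the list. Under both settings it was higher in the windows than in the list.

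Retention went with the class. Of the 36 weak peaks 32 were retained (88.9%, interval 73.9 to 96.9; 44.4% of the weak peaks of the list), and of the 23 strong peaks 10 were (43.5%, interval 23.2 to 65.5; 34.7% of the strong peaks of the list). The 10 strong peaks that were retained had fold enrichments of 11.1 to 35.0 with a median of 18.1, and the 13 that were not had 12.2 to 103 with a median of 43.2. The ranges overlap, but no strong peak above 35.0 was retained. The list share for peaks above 35.0 was not determined. With the class limit at 5, 51.7% of 29 strong window peaks were retained, against 34.0% of such peaks in the list. With the limit at 20 the share was 26.7% of 15 peaks, against 37.4%. The strong share of the windows was thus above that of the list at 5 and 10 and below it at 20.

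MBD3 accompanied the CTCF peaks that were retained. Under DMSO, 49 of the 59 CTCF peaks overlapped an MBD3 peak (83.1%, interval 71.0 to 91.6), against 36.9% of the list. By class these were 32 of the 36 weak peaks (88.9%) and 17 of the 23 strong peaks (73.9%), where the list had 36.9% in either class. Of the 49 peaks with MBD3, 41 were retained (83.7%, interval 70.3 to 92.7; 76.8% in the list), and of the 10 without MBD3, 1 was (10.0%, interval 0.253 to 44.5; 17.3% in the list). The difference between peaks with and without MBD3 was thus present in the windows and in the whole list alike. All 10 strong peaks that were retained had an MBD3 peak under DMSO, and 7 of the 13 others had. The 10 strong CTCF peaks that kept a CTCF peak under BPK-25 also overlapped an MBD3 peak there, and none of the other 13 did. That is 43.5% of the 23 strong peaks (interval 23.2 to 65.5), against 36.1% of the strong peaks of the list. The strong peaks of the list were not split by retention, so whether these splits are particular to the windows was not tested.

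**Figure D3:**
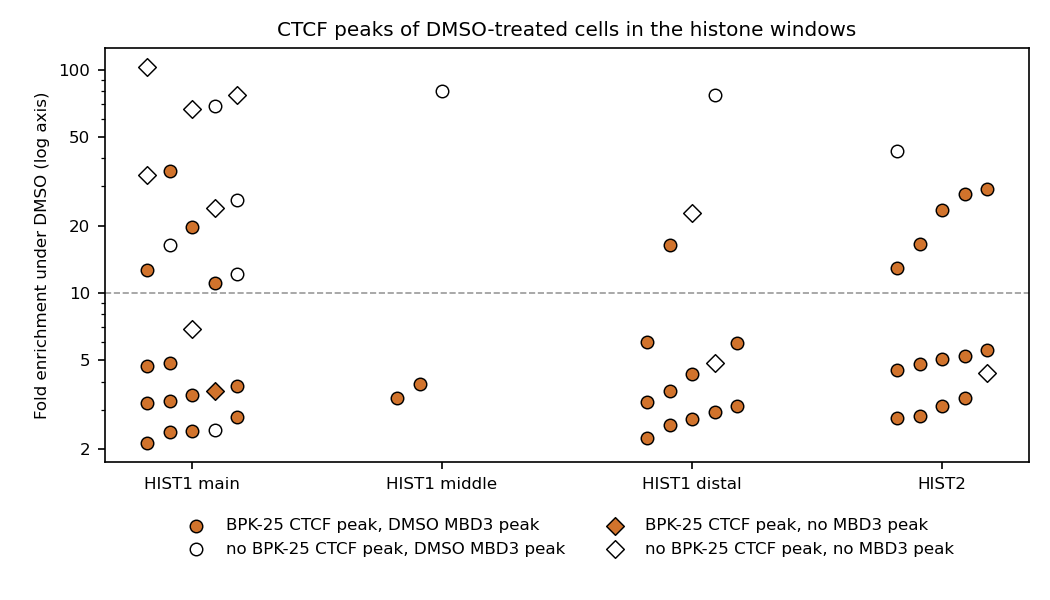
Fold enrichment under DMSO (vertical axis, log scale) of the 59 CTCF peaks of the 4 windows (horizontal axis); points are spread sideways to be seen. Filled points overlap a CTCF peak under BPK-25, circles overlap an MBD3 peak under DMSO, and the dashed line is a fold enrichment of 10. The 6 points above 50 are open, and 32 of the 36 points under the line are filled.

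Where CTCF and MBD3 had summits within 200 bp of each other under DMSO, neither protein was the higher over the window pairs as a whole. Height is here the pileup divided by the genome background of its list, which takes out depth. Over 42 such pairs the median ratio of CTCF to MBD3 was 0.997 (quartiles 0.723 and 2.42), against 3.87 (0.873 and 18.4) over 28837 pairs of the whole list. Under BPK-25 the ratio was 0.996 in the windows (quartiles 0.825 and 1.11) and 0.996 in the list (0.825 and 1.16). CTCF was the higher in 21 of the 42 DMSO pairs, and single pairs lay far apart: at chr6:26026244-26026935 the heights were 221 for CTCF and 13.4 for MBD3, and at chr6:27863026-27863642 they were 196 and 9.96. The median ratio of the windows was thus near 1 under either treatment, while that of the list went from 3.87 to 0.996.

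Window peaks that CTCF kept did not all move in the same direction. All 10 strong peaks that were retained had a lower fold enrichment under BPK-25, 3.12 to 9.49, and a lower height over the genome background as well. Their class was set by the DMSO value, and no CTCF window peak exceeded 10.0 under BPK-25. A lower fold enrichment was therefore fixed by the choice of these peaks. At the 28 window sites with summits within 100 bp in both treatments the median fold enrichment was 3.77 under DMSO and 5.05 under BPK-25, and the median height over the genome background 8.96 and 12.6. In the whole list the medians of shared sites went from 8.47 to 4.83 and from 17.1 to 10.1. Within the windows 14 of the 28 sites had the higher fold enrichment under BPK-25 and 14 under DMSO. The medians were higher under BPK-25 while the sites were evenly divided.

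MBD3 peaks of the windows were weak in both treatments, as in the list. The median fold enrichment was 4.17 under DMSO (quartiles 3.19 and 5.25) and 4.56 under BPK-25 (3.54 and 5.98), against 3.65 and 3.77 over the lists. The HIST2 window had the highest DMSO median, 5.85, and held the highest value, 13, at chr1:149823303-149825610. Of the 73 DMSO peaks, 47 were retained (64.4%, interval 52.3 to 75.3), close to the 61.4% of the list. The windows differed among themselves, from 17 of 34 in the main to 12 of 14 in the HIST2 window, and in the HIST1 neighbours 43 of 145 were retained (29.7%, interval 22.4 to 37.8). In the HIST1 windows alone 35 of 59 were retained (59.3%, interval 45.7 to 71.9), and in the HIST2 neighbours 4 of 6. Of the 73, 46 overlapped a CTCF peak under DMSO (63.0%, interval 50.9 to 74.0), against 43.3% of the list.

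New peaks, those under BPK-25 that overlap no DMSO peak of the same target, made up a smaller share of the CTCF, MBD3 and TET3 peaks in the windows than over the lists. They were 44 of 86 for CTCF (51.2%, interval 40.1 to 62.1; 83.3% of the list) and 34 of 82 for MBD3 (41.5%, interval 30.7 to 52.9; 78.2% of the list). For TET3 they were 18 of 47 (38.3%, interval 24.5 to 53.6; 65.8% of the list), while 2 peaks each allow no comparison for TET1, with 0 of 2 (38.5% of the list), and TET2, with 1 of 2 (40.3% of the list). The new CTCF peaks had a median fold enrichment of 3.88, against 5.46 for the others. Of the 44 new CTCF peaks, 12 lay at an MBD3 peak of DMSO cells and 26 at an MBD3 peak of BPK-25 cells (59.1%, interval 43.2 to 73.7). The latter share is near the 64.9% of all new CTCF peaks. At no MBD3 peak of DMSO cells lay 32 of the 44, against 181464 of the 204469 new CTCF peaks of the list.

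CTCF and MBD3 came up together at 17 of the 141 sites of the windows, a site being a run of overlapping peaks of any list. These 17 had peaks of both proteins under BPK-25 and of neither under DMSO, and 11 of them lay in the main window. Such joint gain was no more frequent than over the genome: of the new CTCF peaks at no MBD3 peak of DMSO cells, 17 of 32 met an MBD3 peak under BPK-25 (53.1%, interval 34.7 to 70.9), against 62.0% of the list. The highest among them by CTCF, picked once the values were known, were chr6:27831763-27832110 in the distal window, with fold enrichments of 9.06 for CTCF and 6.98 for MBD3, and chr6:27107093-27107410 in the middle window, with 7.88 and 7.75. Next by CTCF was chr6:26272464-26272754 in the main window, with 7.55 and 5.33. No TET protein had a peak at these 3 sites in either treatment. Over the windows, 66 of 86 CTCF peaks under BPK-25 overlapped an MBD3 peak (76.7%, interval 66.4 to 85.2; 69.0% of the list) and 65 of 82 MBD3 peaks a CTCF peak (79.3%, interval 68.9 to 87.4; 69.1% of the list).

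TET1, the first of the 3 dioxygenases, was nearly absent from the windows under BPK-25. Of its 34 DMSO peaks 2 were retained (5.88%, interval 0.720 to 19.7), close to the 4.59% of the list. In the HIST1 neighbours 56 of 102 were retained (54.9%, interval 44.7 to 64.8). TET1 peaks of the neighbours were also higher under DMSO, with a median fold enrichment of 7.43 against 4.17 in the windows and 4.04 in the list. Among peaks with a fold enrichment of at least 6, a limit chosen after the data were seen, 2 of 5 were retained in the windows, 50 of 67 in the neighbours (74.6%, interval 62.5 to 84.5) and 28.1% in the list. The neighbours held 12.5% of the 447 TET1 peaks under BPK-25.

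The main window kept 1 TET1 peak, and it lay near the end of the window that faces the middle window. At chr6:26286608-26286928, TET1 reached 6.46 in DMSO cells and 7.94 in BPK-25 cells (fold enrichment). TET3 had 9.93 and 17.7 there, the highest TET value of the windows, and TET2 had no DMSO peak and 10.3 under BPK-25. MBD3 had 6.53 under DMSO and no peak under BPK-25, and CTCF had no peak in either treatment. This combination, with TET1 and TET2 but neither CTCF nor MBD3 under BPK-25, was found at no other site of the windows. With 2 TET1 and 2 TET2 window peaks under BPK-25, hardly any other site could have shown it. In the HIST1 neighbours a TET1 or TET2 peak without CTCF and MBD3 was usual under BPK-25. There 1 of 56 TET1 and 0 of 68 TET2 peaks overlapped either protein. For TET1 the height over the genome background went against its fold enrichment, from 20.0 to 13.1. Its local background went from 2.64 to 1.15 times the genome background. The TET3 height went up with the fold enrichment, from 17.7 to 29.2. In the RefSeq gene order H4C8 is the last histone gene of the main group, and the second gene after it, TRX-CAT1-2, is the first transfer RNA gene of the stretch that follows; whether the site lies at either gene was not determined.

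Where TET peaks stood relative to CTCF and MBD3 differed between windows and neighbours under BPK-25. Under DMSO 31 of 34 TET1 window peaks overlapped a CTCF or MBD3 peak (91.2%, interval 76.3 to 98.1; 89.8% of the list), and 85 of 102 did in the neighbours (83.3%, interval 74.7 to 90.0). Under BPK-25, 1 of 56 TET1 peaks of the neighbours did (1.79%, interval 0.0452 to 9.55; 29.8% of the list), and 1 of the 2 in the windows. For TET2 the neighbours had 49 of 60 under DMSO (88.3% of the list) and 0 of 68 under BPK-25 (25.0% of the list). For TET3 the windows had 37 of 43 under DMSO (86.0%, interval 72.1 to 94.7; 87.1% of the list) and 28 of 47 under BPK-25 (59.6%, interval 44.3 to 73.6; 50.3% of the list), and the neighbours 92 of 106 and 26 of 125. TET peaks of the neighbours thus lay mostly outside CTCF and MBD3 peaks under BPK-25, and mostly inside them under DMSO.

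TET2 had few members. Its 5 DMSO peaks had fold enrichments of 3.80 to 5.61. All 5 overlapped an MBD3 peak (84.8% of the list) and a TET3 peak (78.7% of the list), with an interval of 47.8 to 100 for either. Under BPK-25, 1 of the 5 overlapped a TET2 peak (24.7% of the list), at chr1:149832221-149833481, with 5.47 under DMSO and 5.79 under BPK-25. The height over the genome background at that site was lower under BPK-25, going from 23.2 to 11.5. In the HIST1 neighbours 50 of 60 were retained (83.3%, interval 71.5 to 91.7), with a median fold enrichment of 6.83 under DMSO and, over the 68 BPK-25 peaks, of 9.77.

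TET3 was the TET protein that stayed in the windows. Of its 43 DMSO peaks 30 were retained (69.8%, interval 53.9 to 82.8), against 31.9% of the list and 93 of 106 (87.7%, interval 79.9 to 93.3) in the neighbours. All 8 with a fold enrichment of at least 6 were retained, against 54.2% of such peaks in the list and 63 of 64 (98.4%, interval 91.6 to 100) in the neighbours. Its median fold enrichment in the windows was 4.52 under DMSO and 5.29 under BPK-25, against 4.38 and 4.91 over the lists. At 20 sites with summits within 100 bp the fold enrichment went from 4.73 to 5.67, while the height over the genome background went from 11.8 to 9.72. The local background beside it went from 1.67 to 1.00 times the genome background, so the 2 scales moved in opposite directions. The whole list did the same. Over its 3422 such sites the fold enrichment went from 4.88 to 5.67 and the height from 11.8 to 9.72. The local background there went from 1.79 to 1.10 times the genome background.

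**Figure D4:**
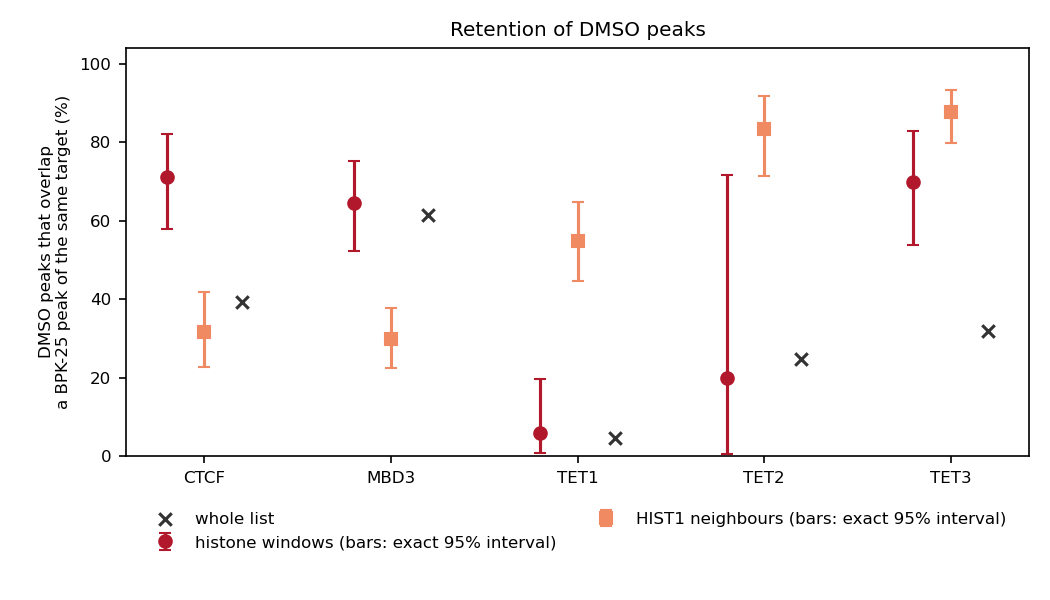
Share of DMSO peaks that the BPK-25 list of their target overlaps (vertical axis, percent) for each target (horizontal axis), in the histone windows, in the HIST1 neighbours and over the whole list. Bars are exact 95% intervals and cover counting error only. CTCF and MBD3 are higher in the windows (71.2% and 64.4%) than in the neighbours (31.7% and 29.7%), and TET1, TET2 and TET3 are lower in the windows (5.88%, 20.0% and 69.8%) than in the neighbours (54.9%, 83.3% and 87.7%).

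CTCF and MBD3 peaks of the windows met TET1 and TET3 more often than those of the lists did, while the share of TET peaks that met CTCF or MBD3 was near that of the lists. Under DMSO, 24 of 59 CTCF peaks overlapped a TET1 peak (40.7%, interval 28.1 to 54.3; 3.99% of the list) and 30 of 59 a TET3 peak (50.8%, interval 37.5 to 64.1; 7.99% of the list). Of 73 MBD3 peaks, 28 overlapped TET1 (38.4%; 5.94% of the list) and 35 TET3 (47.9%; 13.5% of the list). Seen from the TET side under DMSO, TET1 met CTCF in 70.6% (67.6% of the list) and MBD3 in 88.2% (83.2%), and TET3 met CTCF in 69.8% (interval 53.9 to 82.8; 58.1%) and MBD3 in 83.7% (82.6%). TET1 and TET3 also overlapped each other, in 23 of 34 TET1 peaks (67.6%; 59.3% of the list) and 22 of 43 TET3 peaks (51.2%; 24.9% of the list). Under BPK-25, 26 of 86 CTCF peaks (30.2%, interval 20.8 to 41.1; 2.31% of the list) and 24 of 82 MBD3 peaks (29.3%; 2.46% of the list) overlapped TET3. Beside these shares stands the density of the TET1 and TET3 peaks, 19.5 to 36.9 times that of the rest of the genome; its part in the overlaps was not tested.

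BPK-25 TET3 peaks lay at 16 of the 23 strong CTCF sites of DMSO cells (69.6%, interval 47.1 to 86.8; 11.1% of the list) and at 15 of the 36 weak ones (41.7%, interval 25.5 to 59.2; 3.44% of the list). Under DMSO, TET3 peaks already lay at 13 of the 23 strong sites (56.5%; 7.54% of the list). They lay at 17 of the 36 weak ones (47.2%; 8.50% of the list). The BPK-25 TET3 peaks were at 9 of the 10 strong sites that CTCF kept and at 7 of the 13 where it was no longer called. The list was not split in this way, so whether that split is particular to the windows was not tested. At chr6:26026244-26026935 in the main window, CTCF had a fold enrichment of 68.4 and MBD3 4.39 under DMSO and neither had a peak under BPK-25, while TET3 had 3.91 and 9.07. At chr6:27863026-27863642 in the distal window, CTCF had 77.2 and MBD3 3.96 under DMSO and no peak under BPK-25, while TET3 had 4.53 and 6.42 (heights over the genome background 11.8 and 10.3). TET3 was thus called under BPK-25 at sites without CTCF and MBD3 calls as well as at sites with them.

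Between these extremes, most sites of the windows were found in few lists. Of 141 sites, 57 were in 1 list, 35 in 5 or more and 4 in 8 or more. By the naming rule 50 sites qualified, and the 30 found in most lists are in the heat map. Site chr6:26020545-26021384 lies in the main window and kept CTCF and MBD3: CTCF 4.84 and 6.13, MBD3 4.85 and 6.42, TET1 6.31 under DMSO only and TET3 3.46 under DMSO only. Site chr6:26103849-26104653 of the same window did not: CTCF 16.4, MBD3 6.62 and TET1 4.09 under DMSO only, with TET3 at 6.17 and 6.01.

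The distal window held 1 site found in 8 lists, chr6:27791565-27792254. There the CTCF fold enrichment stood at 6.03 (DMSO) and 5.91 (BPK-25), that of MBD3 at 4.78 and 4.59, and that of TET3 at 5.39 and 5.35. These 3 fold enrichments were close in the 2 treatments, but the heights over the genome background were all lower under BPK-25. The heights went from 18.2 to 13.6 (CTCF), 14.6 to 8.57 (MBD3) and 14.2 to 8.51 (TET3). TET1 and TET2 had fold enrichments of 6.39 and 4.18 under DMSO and no peak under BPK-25. A site of the same window, chr6:27805706-27806871, had CTCF values of 2.57 and 7.84 beside MBD3 values of 7.07 and 6.98. It is a run of 11 peaks over 1166 bp, and each value is that of the strongest peak of its list. The MBD3 summits lay at 27806007 (DMSO) and 27806742 (BPK-25), and the CTCF summits at 27806505 and 27806720. The values thus do not compare the treatments at a single position.

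**Figure D5:**
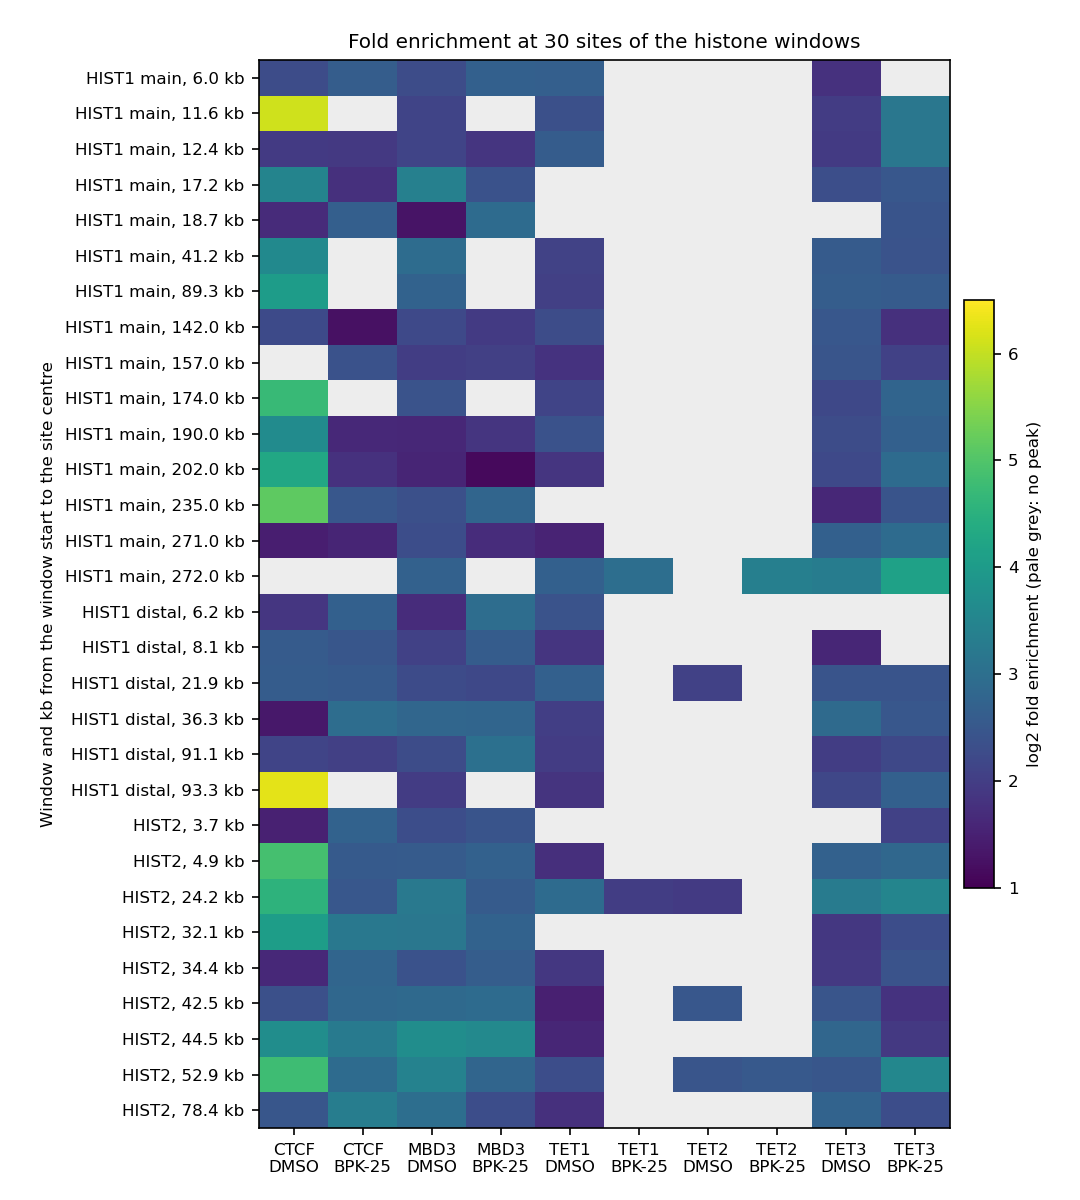
Fold enrichment (colour, log2 scale; pale grey where the list has no peak) at the 30 named sites (vertical axis, by window and kb from its start) in the 10 lists (horizontal axis). The CTCF column under DMSO holds the highest values, up to 77.2. Among these sites the TET1 column under BPK-25 has 2 entries and the TET2 column under BPK-25 has 2.

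HIST2 held the sites found in most lists. The sites chr1:149803576-149804737 and chr1:149832221-149833481 were each in 9 of 10 lists. At the former, CTCF stood at 23.6 in DMSO and 5.62 in BPK-25 cells, MBD3 at 9.32 and 5.98, and TET3 at 9.73 and 11.4. TET1 had 7.60 and 3.97 there, and TET2 3.80 under DMSO. At the latter, CTCF had 27.6 and 7.59, MBD3 10.9 and 6.89, TET3 5.57 and 11.7, TET2 5.47 and 5.79, and TET1 4.89 under DMSO. CTCF and MBD3 had lower fold enrichments under BPK-25 at both sites and TET3 higher ones. For TET3 the height over the genome background went the other way, from 29.5 to 19.4 at chr1:149803576-149804737 and from 23.6 to 20.1 at chr1:149832221-149833481. Its local background went from 2.50 to 1.15 and from 3.75 to 1.15 times the genome background there. The TET2 height at chr1:149832221-149833481 was lower under BPK-25 as well, going from 23.2 to 11.5.

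Sites between these were compared with their mirror images about the point midway, 38.5 kb from the window start, an axis chosen from these sites after their values were seen; their centres are 28.7 kb apart. Of the 10 sites between them, 5 have a site at the mirrored position, and the 5 that do not are in 1 or 2 lists each. The inner pair is chr1:149813804-149815092, in 7 lists, and chr1:149821918-149823177, in 8 lists. CTCF had 3.11 and 6.89 at the former and 5.04 and 7.17 at the latter, and MBD3 5.25 and 6.20 against 7.35 and 7.60. Outside the stretch 4 of 15 sites have a counterpart. The axis lies nearer to the start of the window than to its end, so sites near the end mirror to positions before the start. No sites were sought there and these could have no counterpart, so the shares inside and outside cannot be compared. H4C14 and H4C15, with identical promoters on opposite strands, are genes of the same HIST2 group. How reads with more than 1 placement were treated is not given in the sources used here. The part of such copies in the HIST2 values was not tested.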

How the data were processed

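Each of the 5 targets has 1 deposited peak list per treatment, 10 in all. The labels of the samples name their list, and pooled calling was assumed. The TET2 DMSO list is named for replicates 1 to 3, while the TET2 DMSO immunoprecipitates in the labels used here are 1 and 3. The submitters' processing notes name MACS2 2.1.2 and Bowtie2 2.3.4, besides bedtools 2.25.0, FastQC 0.11.7 and SAMtools 1.9, and the build hg19. Their settings are not given. Per summit the deposited lists hold a fold enrichment (a ratio of pileup to local background), the -log10 p-value, the -log10 q-value and a score, which was not used further. The lowest -log10 q was 1.30 to 1.31. The summit offset is deposited too. All 10 lists were read with Python 3.11.15, pandas 2.3.3 and scipy 1.17.1.

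Intervals that overlapped or touched were merged, keeping the values of the summit of highest -log10 q. Pileup and local background were solved from the fold enrichment, taken as (pileup + 1) over (background + 1), and the Poisson -log10 p; 100% of pileups under 200 came within 0.02 of whole numbers. As the genome background served the lowest local background in the list, in fragments under DMSO and BPK-25: CTCF 3.68 and 2.58, MBD3 3.21 and 2.57, TET1 1.85 and 1.75, TET2 1.25 and 1.05, TET3 1.70 and 1.65. It follows depth, so lists of lower background need fewer fragments for a call. Scripts were tested on simulated data. Library totals were not used here.

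Overlap means at least 1 bp. Sites were named by a rule: 3 or more targets under 1 treatment, the 5 strongest CTCF and MBD3 peaks per treatment, the 5 strongest not retained or new with no peak of the same target within 1000 bp, and up to 10 TET peaks per list, of which the 30 sites in most lists were kept. The middle-window CTCF peak with a fold enrichment of 80.2 crosses the window edge and is counted in the neighbours too. Members and lists were chosen with earlier results of these data known. The alternatives tried were stricter lists (-log10 q from 5 or from 10), other overlap and merging rules, lists cut to the same number of strongest peaks, and, chosen after seeing the data, CTCF class limits of 5 and 20 and TET peaks of a fold enrichment of at least 6. Promoters are from RefSeq GRCh38.p14.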

Additional observations from a re-analysis of the deposited data

How the results depend on the processing

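No paired analysis was possible because each group has 1 pooled list; for the same reason no replicate could be left out. Of 186 values under alternatives, 141 kept within 1.5 times the main count, median ratio or density, or within the main 95% interval of a share.

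With a -log10 q of at least 10, the window counts under DMSO and BPK-25 were 36 and 36 (CTCF), 34 and 37 (MBD3), 3 and 1 (TET1), 1 and 1 (TET2) and 7 and 7 (TET3), so the higher CTCF count under BPK-25 was not found there. With at least 5 they held 56 CTCF, 1 TET1, 1 TET2 and 25 TET3 peaks under BPK-25, and 11 TET1, 3 TET2 and 18 TET3 peaks under DMSO. CTCF retention was 54.2% (28.1% of the list) at 5, 33.3% (16.8%) at 10 and 50.8% (27.8%) with equal numbers of strongest peaks. TET1 retention was 33.3% of 3 peaks at 10, 100% of 2 with equal numbers, and 40.0% of 5 with a fold enrichment of at least 6. TET2 retention was 0% at 5 and at 10 (3 and 1 peaks), with 100% of 1 BPK-25 peak new at either. TET3 retention was 44.2% (23.3%) with 50% of the peak covered and 100% of 8 peaks with a fold enrichment of at least 6. New CTCF peaks were 63.9% at 10, and new MBD3 peaks 20.4% with equal numbers of strongest peaks.

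At 5, CTCF overlapped TET3 in 29.2% under DMSO and MBD3 in 87.5% under BPK-25, and TET1 overlapped CTCF in 90.9%. With summits within 200 bp, TET1 met CTCF in 41.2% and MBD3 in 58.8% under DMSO; under BPK-25 CTCF met TET3 in 18.6% and TET3 met CTCF in 34.0%, and with 50% covered in 16.3% and 29.8%. On the scale of pileup over genome background the window median over the list median was 0.708 for TET1 and 0.660 for TET2 under BPK-25. At 10 the density ratio was 4.85 for CTCF under BPK-25 against 2.88 under DMSO, the reverse of the order at the deposited threshold, and 4.67 for MBD3 against 8.31, and 17.3 for TET2 under BPK-25 at 5. The cause of these changes was not tested. Depth is known only through the genome background, and a site without a peak may lie under the threshold.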
